A study of Mus musculus with 4 samples.

Results

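Mitochondrial ribosomal protein genes were taken as the protein-coding genes of the count table whose mouse symbol starts with Mrpl (large subunit) or Mrps (small subunit). The rule found 78 of the 22298 genes of the table, 49 of the large and 29 of the small subunit, and all 78 passed the filter on low counts that left 12888 genes for the test. RNA-seq was performed on brown adipose tissue (BAT) of fetuses at E18.5 (strain C57BL/6 in the labels, C57BL/6J in the study's methods), with 2 libraries from control dams given sterilised tap water and 2 libraries from dams given 20% (w/v) fructose in the drinking water. The values were raw read counts per gene, totalling from 18542897 to 23645147 per library. The number of fetuses or litters behind a library was not given in the sources used here, so the p-values measure the spread between these libraries only.

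All 4 libraries were labelled as male fetuses. However, 4 genes of the Y chromosome (Ddx3y, Eif2s3y, Uty and Kdm5d) held 422 and 390 counts together in the control libraries and 0 in both fructose libraries, which allows up to 0.133 and 0.123 CPM there, taken as 3 counts and covering counting error only. Sex and maternal diet therefore cannot be told apart in any value below, since both fructose libraries are concerned and no comparison without them exists. Brown adipocyte markers were high in all libraries, between 21413 and 25114 CPM summed over 10 genes (CPM, counts scaled to a common library size after TMM normalisation), with Ucp1 between 9606 and 12420 CPM.

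Mitochondria hold their own ribosomes, which translate only the messenger RNAs of the mitochondrial genome, all of them for membrane proteins of oxidative phosphorylation. The ribosomal RNAs come from the mitochondrial genome, whereas every protein of the particle is encoded in the nucleus and imported. The small subunit reads the messenger RNA and the large subunit joins the amino acids, and next to relatives of bacterial ribosomal proteins both carry proteins found only in mitochondria. Brown adipocytes are rich in mitochondria, whose respiratory chain drives heat production by uncoupling protein 1.

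The mitochondrial ribosomal protein genes had lower levels in fructose than in control BAT. However, the size of the difference depended on whether trends with transcript length and GC content were removed. The median log2 fold change of the small subunit was -0.24 with no trend removed and -0.08 with the length trend removed. It turned to 0.02 with both trends removed. Summed over the 78 genes, the level was 9596 and 9846 CPM in control libraries 1 and 2 and 8269 and 7699 CPM in fructose libraries 1 and 2. Both fructose sums were below both control sums, and their mean decreased by 17.9%. The genes took 0.946% and 0.958% of all counts in control and 0.833% and 0.798% in fructose. In bulk tissue, fewer cells of a type and less RNA per cell cannot be told apart.

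Of the 78 genes, 75 had a log2 fold change below 0, and 40 fell at an adjusted p under 0.05 (quasi-likelihood test of edgeR, p-values adjusted after Benjamini and Hochberg), where 10.7% of all tested genes fell. None rose, where 15.5% of all tested genes did. DESeq2 called 36 lower and 0 higher, where it called 1045 and 1360 of the 12888 tested genes. The single member above 0 at an unadjusted p under 0.05 was Mrpl1. Their log2 fold changes had a median of -0.26, with quartiles at -0.36 and -0.16, against a median of 0.0024 over all tested genes. At the thresholds of the study's methods, an unadjusted p under 0.05 and a fold change above 1.3, 13 members were lower and 0 higher, with 6.18% and 17.6% of all tested genes. Both fructose libraries lay below both control libraries for 65 members, a pattern seen in 31.6% of all tested genes, and above both for 2 members, a pattern seen in 33.4%.

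The calls depended on fructose library 2. It was lower than fructose library 1 for 68 of the 78 members, whereas control library 2 was lower than control library 1 for 24. Without fructose library 2, 10 members fell, where 3.71% of all tested genes fell, with fructose library 1 assumed to vary like the controls, and these were 9 of the large and 1 of the small subunit. Without control library 1, the median log2 fold change of the small subunit genes was -0.28, against -0.24 with all libraries. Fructose library 1 was still below control library 1 for 67 members and below control library 2 for 72, and fructose library 2 for 73 and 76. Compared with control library 1, the median log2 difference of the large subunit genes was -0.22 in fructose library 1 and -0.31 in fructose library 2, and that of the small subunit genes was -0.15 and -0.29.

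**Figure D1:**
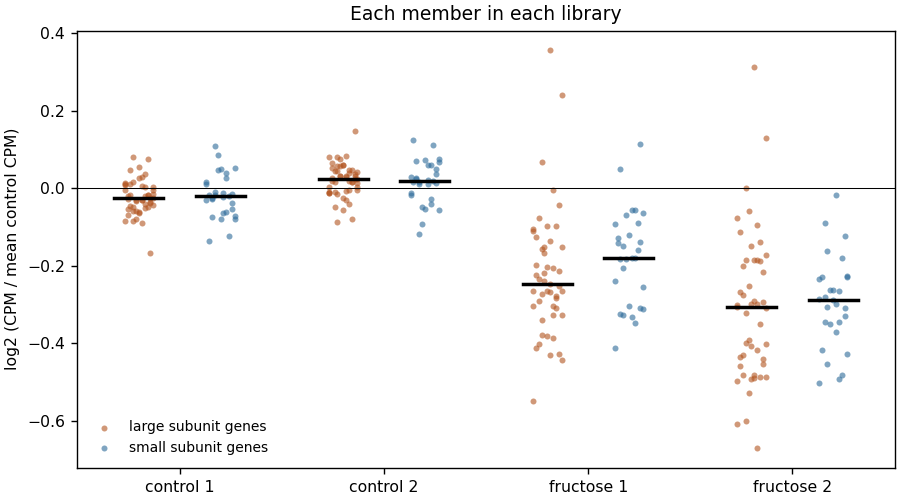
Level of each member in each of the 4 libraries, as the log2 ratio of its CPM to the mean CPM of the 2 control libraries, with no length trend removed (points, genes; black bars, medians; orange, 49 large subunit genes; blue, 29 small subunit genes). The fructose points lie mostly below 0, and those of fructose library 2 lie lower than those of fructose library 1 for 68 of 78 members.

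Of the 49 large subunit genes, 46 were below 0, 30 fell and none rose, where 10.7% of all tested genes fell and 15.5% rose. Their log2 fold changes had a median of -0.30, with quartiles at -0.37 and -0.16. With the trends of transcript length and GC content removed, the median was -0.06, and 10 fell. With no trend removed, the lowest log2 fold change was that of Mrpl23, whose protein lies at the exit of the tunnel through which the new chain leaves the ribosome. Mrpl23 (ENSMUSG00000037772, chr7:142532686-142540747, plus strand, GRCm38) measured 96.3 and 95.0 CPM in control and 65.4 and 62.7 CPM in fructose. The groups were far apart compared with the distance within each, and the log2 fold change was -0.58 (SE 0.08, adjusted p = 0.00073). Of the other genes of the exit tunnel, Mrpl4 (-0.36, SE 0.08, adjusted p = 0.0080), Mrpl24 (-0.30, SE 0.08, adjusted p = 0.017) and Mrpl22 (-0.29, SE 0.09, adjusted p = 0.029) fell. None of the 5 exit tunnel genes passed the test with both trends removed. Mrpl45, whose protein holds the ribosome to the inner membrane, measured 103 and 112 CPM in control and 101 and 97.2 CPM in fructose, with a log2 fold change of -0.12 (SE 0.08, adjusted p = 0.29).

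With no trend removed, all 4 genes for proteins that reach towards the peptidyl transferase centre, where amino acids are joined, fell, whereas with both trends removed 1 of them (Mrpl3) did. Mrpl2 measured 231 and 230 CPM in control and 170 and 164 CPM in fructose, without overlap, with a log2 fold change of -0.47 (SE 0.08, adjusted p = 0.0020). The log2 fold changes of Mrpl27, Mrpl3 and Mrpl16 were -0.32, -0.28 and -0.25, with adjusted p of 0.016, 0.033 and 0.047. Of the 3 genes of the stalk that binds the translation factors, all fell with no trend removed and 1 (Mrpl11) with both removed. Mrpl12, the repeated stalk protein, measured 451 and 442 CPM in control and 371 and 316 CPM in fructose, the widest spread within the fructose group among these genes, and its log2 fold change was -0.38 (SE 0.09, adjusted p = 0.012). Mrpl11, at the stalk base, had a log2 fold change of -0.26 (SE 0.08, adjusted p = 0.037), and Mrpl10, which anchors Mrpl12, had one of -0.25 (SE 0.08, adjusted p = 0.039).

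Other large subunit genes with low fold changes included Mrpl20, a relative of a bacterial protein that binds ribosomal RNA during assembly, with 256 and 262 CPM in control and 198 and 163 CPM in fructose. Its log2 fold change was -0.52 (SE 0.10, adjusted p = 0.0034), although the fructose libraries differed from each other by more than the controls did. Mrpl54 (-0.49, SE 0.10, adjusted p = 0.0047) and Mrpl53 (-0.46, SE 0.08, adjusted p = 0.0023) encode proteins found only in mitochondria. Mrpl38, in the same class, had a log2 fold change of -0.44 (SE 0.08, adjusted p = 0.0029), and of -0.07 with both trends removed. Mrpl58, an integral large subunit protein that can free peptides from stalled ribosomes, measured 126 and 121 CPM in control and 94.8 and 87.8 CPM in fructose. Its log2 fold change was -0.44 (SE 0.08, adjusted p = 0.0034), and of the genes of this paragraph it was the only one that also fell with both trends removed.

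The 3 large subunit genes above 0 were Mrpl1, Mrpl50 and Mrpl35, and none passed the test. Mrpl1, a protein of the stalk on the side where transfer RNA leaves, measured 13.3 and 13.9 CPM in control and 17.4 and 16.9 CPM in fructose, from 250 to 413 counts per library. Both fructose values were above both controls, and the log2 fold change was 0.33 (SE 0.13, adjusted p = 0.075), which turned to -0.12 once the length and GC content trends were removed. Mrpl50 measured 29.2 and 29.3 CPM in control and 34.6 and 32.0 CPM in fructose, also without overlap, with a log2 fold change of 0.19 (SE 0.10, adjusted p = 0.18). Mrpl35 overlapped between the groups, with a log2 fold change of 0.03 (SE 0.09, adjusted p = 0.80).

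All 29 small subunit genes were below 0, with Mrps25 at -0.0004, and the median was -0.24 (interquartile range -0.28 to -0.16), but with both trends removed it was 0.02. Of these genes, 10 fell and none rose, where 10.7% of all tested genes fell and 15.5% rose. Both fructose libraries lay below both control libraries for 21 of them, a pattern seen in 31.6% of all tested genes. Mrps24, whose protein lines the channel by which messenger RNA enters, measured 176 and 172 CPM in control and 131 and 123 CPM in fructose. The groups stood apart, with a log2 fold change of -0.46 (SE 0.08, adjusted p = 0.0024). The other genes of the entry channel, Mrps5 (-0.22, SE 0.09, adjusted p = 0.084) and Mrps2 (-0.02, SE 0.08, adjusted p = 0.90), did not pass the test. Mrps2 measured 140 and 145 CPM in control and 147 and 134 CPM in fructose, so that the fructose values enclosed the controls.

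Mrps12, whose bacterial relative takes part in decoding, measured 59.2 and 60.3 CPM in control and 48.2 and 47.5 CPM in fructose. The groups did not overlap, and the log2 fold change was -0.32 (SE 0.08, adjusted p = 0.016). Of the genes for the head of the small subunit, Mrps14 (-0.37, SE 0.08, adjusted p = 0.0088) and Mrps9 (-0.28, SE 0.08, adjusted p = 0.025) fell, whereas Mrps7 (-0.20, SE 0.09, adjusted p = 0.12) and Mrps10 (-0.18, SE 0.10, adjusted p = 0.21) did not pass the test. Mrps16, a relative of a bacterial protein needed for assembly of the small subunit, measured 146 and 138 CPM in control and 112 and 101 CPM in fructose, with a log2 fold change of -0.42 (SE 0.09, adjusted p = 0.0049). Mrps34, a protein found only in mitochondria, had a log2 fold change of -0.39 (SE 0.08, adjusted p = 0.0059). Mrps28 and Mrps11 had log2 fold changes of -0.35 and -0.33, with adjusted p of 0.0089 and 0.010. Of the small subunit genes described here, Mrps14 and Mrps16 also fell with both trends removed, as did Mrps5 (-0.46) and Mrps25 (-0.45), and the others did not pass the test.

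**Figure D2:**
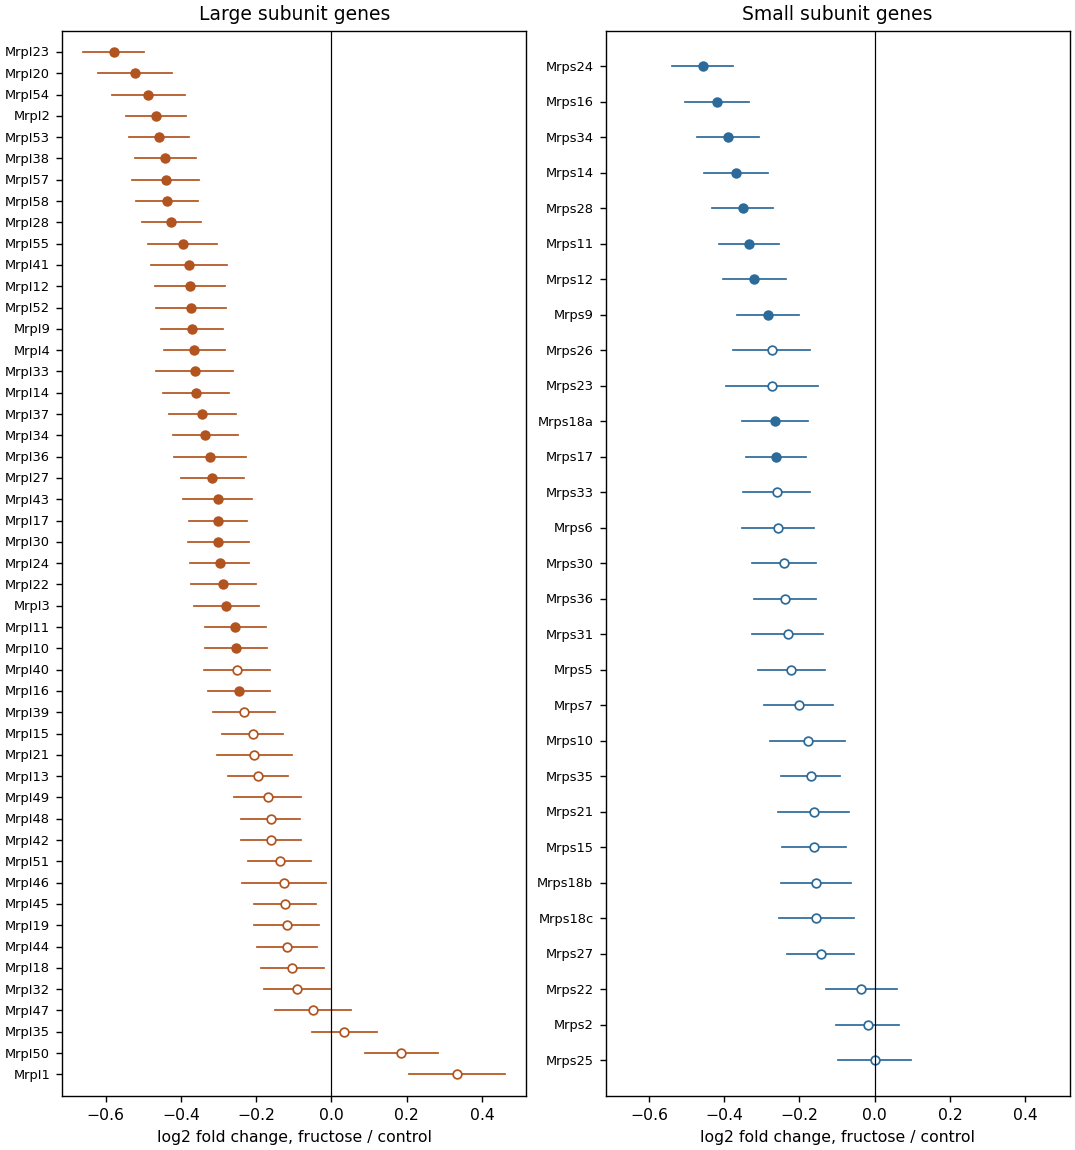
Log2 fold change (fructose over control) of the 49 large and the 29 small subunit genes with no length trend removed, ordered from lowest to highest (points, estimates; lines, 1 SE; filled, adjusted p under 0.05). Filled points number 30 in the large and 10 in the small subunit, all below 0, and Mrpl1 at 0.33 is the highest. With both trends removed the medians moved from -0.30 to -0.06 and from -0.24 to 0.02.

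The promoters of the genes at both ends of each subunit are shown next, since those genes bound the range of the fold changes. Each stretch runs from 250 bases before to 50 after a gene start of RefSeq (GRCm38.p6), read on the gene's strand. Capitals mark a match to 1 of 3 motifs searched on both strands, which are AAGATGGCG for YY1, CCGGAAG for GABPA and GCGCATGCG for NRF1, factors known to act on nuclear genes for mitochondrial proteins. The motifs do not contain one another.
Mrpl23 (chr7:142532782-142533081, plus strand, log2 fold change -0.58): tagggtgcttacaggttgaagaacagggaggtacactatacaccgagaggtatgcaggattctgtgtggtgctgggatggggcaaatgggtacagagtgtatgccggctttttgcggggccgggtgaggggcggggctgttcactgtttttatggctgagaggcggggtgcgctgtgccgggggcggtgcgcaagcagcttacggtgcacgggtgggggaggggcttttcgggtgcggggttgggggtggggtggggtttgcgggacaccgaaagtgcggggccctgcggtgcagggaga
Mrpl1 (chr5:96209865-96210164, plus strand, log2 fold change 0.33): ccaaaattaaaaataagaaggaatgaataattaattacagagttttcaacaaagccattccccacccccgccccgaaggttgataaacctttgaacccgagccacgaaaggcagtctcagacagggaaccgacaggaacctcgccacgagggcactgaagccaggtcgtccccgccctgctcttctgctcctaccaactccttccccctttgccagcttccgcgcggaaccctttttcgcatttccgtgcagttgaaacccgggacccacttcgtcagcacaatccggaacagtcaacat
Mrps24 (chr11:5707652-5707951, minus strand, log2 fold change -0.46): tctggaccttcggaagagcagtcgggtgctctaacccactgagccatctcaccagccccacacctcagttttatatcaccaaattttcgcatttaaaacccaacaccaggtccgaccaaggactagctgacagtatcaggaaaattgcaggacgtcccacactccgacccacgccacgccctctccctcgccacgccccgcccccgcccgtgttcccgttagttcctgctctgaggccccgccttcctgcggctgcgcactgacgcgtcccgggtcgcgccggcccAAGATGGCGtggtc
Mrps25 (chr6:92183974-92184273, minus strand, log2 fold change -0.0004): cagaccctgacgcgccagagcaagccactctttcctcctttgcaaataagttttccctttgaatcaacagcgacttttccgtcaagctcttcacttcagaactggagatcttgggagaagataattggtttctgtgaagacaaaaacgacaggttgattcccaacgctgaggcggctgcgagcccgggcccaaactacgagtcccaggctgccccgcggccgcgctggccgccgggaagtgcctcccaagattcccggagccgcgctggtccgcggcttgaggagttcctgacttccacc

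Only the Mrps24 window held a match among these, to the YY1 motif, past the gene start and close to the end of the window. Of the 69 members with a RefSeq promoter, 35 (50.7%) held at least 1 motif, compared with 11.4% of 32851 promoters of the same length. These were all listed promoters, not limited to tested genes or to 1 per gene, whereas each member counted once. No comparison with promoters of genes of similar level was made. The GABPA motif was in 25 members (36.2%, against 8.86% of all promoters), the YY1 motif in 8 (11.6%, against 1.40%) and the NRF1 motif in 7 (10.1%, against 1.75%). At least 1 motif was in 22 of 43 large and 13 of 26 small subunit promoters. The 60-base stretches below hold the motif in the member with the lowest log2 fold change among those with the NRF1 and the GABPA motif, and were chosen after the values were seen.
Mrpl9 (chr3:94443283-94443342, plus strand, NRF1 motif in capitals): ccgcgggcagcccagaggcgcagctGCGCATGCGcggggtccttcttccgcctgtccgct
Mrpl53 (chr6:83109024-83109083, plus strand, GABPA motif in capitals): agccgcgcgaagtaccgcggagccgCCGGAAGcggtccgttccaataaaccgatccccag

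Fold changes were near each other with and without a motif. The median log2 fold change was -0.28 in the 25 members with the GABPA motif and -0.25 in the 44 without it, -0.29 and -0.26 for the YY1 motif, and -0.25 and -0.26 for the NRF1 motif. A match describes letters in the window and not binding of a factor.

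Next, the large and the small subunit were compared. Summed levels were 6352 and 6526 CPM in control and 5374 and 5048 CPM in fructose for the large subunit, whose mean decreased by 19.1%. They were 3244 and 3320 CPM in control and 2894 and 2651 CPM in fructose for the small subunit, whose mean decreased by 15.5%. The ratio of large to small subunit counts was 1.96 and 1.97 in control and 1.86 and 1.90 in fructose, so that both fructose ratios were below both control ratios. With 2 libraries against 2, a permutation test cannot go below a p of 0.333, and the difference between the subunits was not tested. With no trend removed, the share of genes that fell was 61.2% in the large and 34.5% in the small subunit, against 10.7% of all tested genes. The medians of -0.30 and -0.24 differed by less than the interquartile range of either. With both trends removed, 10 of 49 large and 8 of 29 small subunit genes fell, where 3.89% of all tested genes did.

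**Figure D3:**
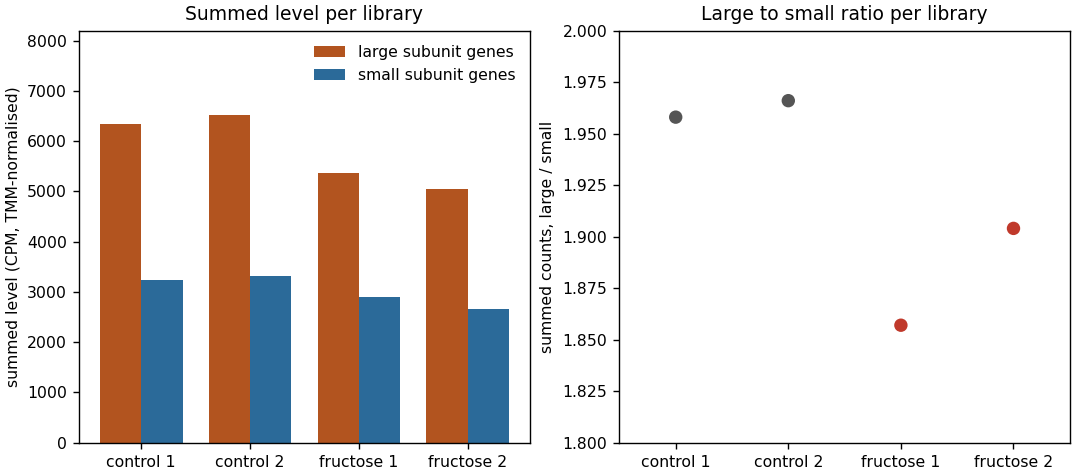
Left, summed level (CPM) of the large (orange) and small (blue) subunit genes in each library, with the axis from 0. Right, ratio of large to small subunit counts in each library (grey, control; red, fructose) (the axis does not start at 0). Fructose sums are below control sums for both subunits, and the ratio runs from 1.96 and 1.97 in control to 1.86 and 1.90 in fructose.

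Symbol and particle do not match for every gene. The proteins of Mrps30 and Mrps18a sit in the large subunit of the mammalian mitochondrial ribosome, and Mrps36 is a subunit of the 2-oxoglutarate dehydrogenase complex. With genes placed by particle, 31 of 51 large and 9 of 26 small subunit genes fell, with medians of -0.29 and -0.24, and the ratio was 2.45 and 2.46 in control and 2.32 and 2.39 in fructose. In the fit with both trends removed, 11 of the 51 and 7 of the 26 fell. Mrps18a fell (-0.26, SE 0.09, adjusted p = 0.043), but was at 0.13 with both trends removed. Mrps30 measured 122 and 135 CPM in control and 108 and 110 CPM in fructose, with a log2 fold change of -0.24 (SE 0.08, adjusted p = 0.055), and Mrps36 measured 300 and 304 CPM in control and 267 and 245 CPM in fructose, with one of -0.24 (SE 0.08, adjusted p = 0.052). The relatives of Mrps18a in the small subunit, Mrps18b and Mrps18c, both had log2 fold changes of -0.16, with adjusted p of 0.23 and 0.27.

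By origin and with no trend removed, 29 of 46 genes classed with a bacterial relative fell (median -0.29). So did 11 of 31 genes classed as specific to mitochondrial ribosomes (median -0.24), where 10.7% of all tested genes fell. The second class includes Mrpl58, and Mrps18a and Mrps18b, relatives of Mrps18c in the first. In the large subunit these counts were 21 of 30 and 9 of 19, and in the small subunit 8 of 16 and 2 of 12. With both trends removed, 10 of the 46 and 8 of the 31 fell, where 3.89% of all tested genes did, and both medians were -0.06. The difference between these classes was not tested.

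Levels per kilobase of transcript spanned a wide range. The highest was that of Mrps36, which is no protein of the particle, with 431 CPM per kilobase in control and 365 in fructose. Among proteins of the particle the highest was Mrpl34 (360 and 285), followed by Mrpl30 (345 and 280), Mrpl12 (339 and 261), Mrpl20 (339 and 236), Mrps21 (284 and 254) and, next among small subunit genes, Mrps34 (192 and 146). In control, Mrpl34, Mrpl12 and Mrpl20 lay within 1 SD (16.5, n = 2) of Mrpl30, so the order of these genes is not settled. Mrpl34 had a log2 fold change of -0.33 (SE 0.09, adjusted p = 0.015) and Mrpl30 one of -0.30 (SE 0.08, adjusted p = 0.019). The lowest levels were those of Mrpl1 (3.96 and 4.99), Mrpl47 (8.34 and 8.07), Mrps25 (10.3 in both groups), Mrpl19 (11.2 and 10.3), Mrps26 (13.0 and 10.7) and, among small subunit genes, Mrps31 (29.7 and 25.3). These values divide by the length of a single reference transcript per gene and depend on the annotated length. Mean levels per kilobase of the large subunit were 1.14 and 1.16 times those of the small subunit in control and 1.08 and 1.09 times in fructose.

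Transcript length moved with the fold changes. Members are short, with a median reference transcript of 1316 bases in the large and 1197 bases in the small subunit against 3003 bases over all tested genes. Over 12884 tested genes, the log2 fold change had a Spearman correlation of 0.493 with length and -0.526 with GC content. Genes under 2000 bases had a median log2 fold change of -0.21 and 25.5% of them fell, whereas longer genes had a median of 0.10 and 5.09% of them fell. Over the 78 members the correlations were 0.409 and -0.519, and they were 0.53 with length in the large and 0.108 in the small subunit. Members share libraries and length and GC content vary together among them (correlation -0.613), so these are descriptions.

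**Figure D4:**
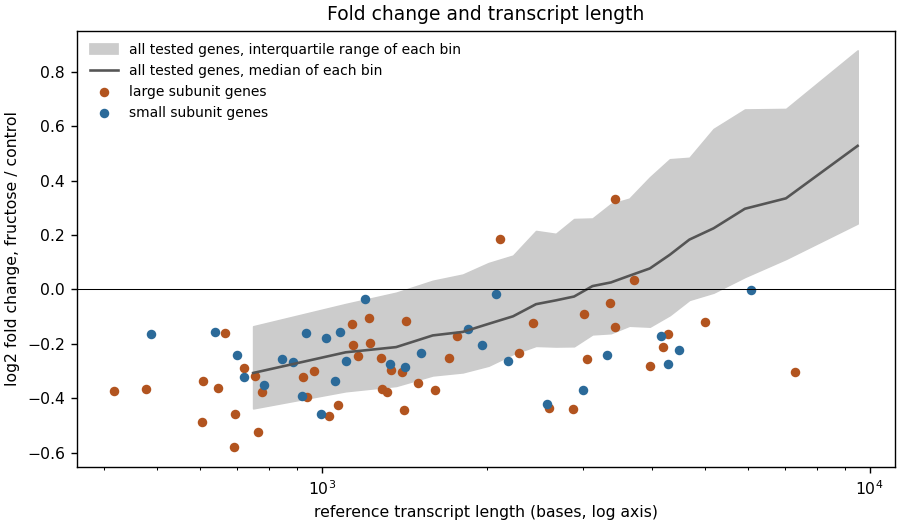
Log2 fold change (fructose over control) against reference transcript length in bases on a log axis. The grey line and band give the median and interquartile range of all tested genes in 20 length bins, rising from -0.31 in the shortest bin, and points are the large (orange) and small (blue) subunit genes, of which those of 2000 bases or more mostly lie under the line.

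Among members under 2000 bases, 32 of 53 fell, with a median of -0.30, and among longer members 8 of 25 fell, with a median of -0.21. Once the length and GC content trends of all genes were removed from each library, none of the 53 short members fell and their median was 0.02, whereas 18 of the 25 longer members fell, with a median of -0.40. Of all tested genes, 3.89% fell and 3.83% rose in this fit, and no member rose. By subunit, 10 large and 8 small subunit genes fell, with medians of -0.06 and 0.02.

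The values with trends removed depended on the length assigned to a gene. With the median length of a gene's annotated transcripts in place of its reference transcript, an alternative chosen after seeing the data, 22 members fell, where 5.72% of all tested genes fell. The medians were then -0.20 in the large and -0.13 in the small subunit. Without trend removal and with either length, the same 7 genes fell, namely Mrpl3, Mrpl17, Mrpl57, Mrpl58, Mrps14, Mrps16 and Mrps17. All of them have reference transcripts over 2000 bases. Mrpl58, in which the estimate changed little, had log2 fold changes of -0.44 with no trend removed, -0.40 with both trends removed and -0.34 with the median length. Mrps16 had -0.42, -0.45 and -0.55. Mrpl57, a small protein found only in mitochondria, measured 48.1 and 49.9 CPM in control and 36.4 and 35.8 CPM in fructose, and had -0.44, -0.77 and -0.87. Mrpl17 had -0.30 with no trend removed and -0.96 and -0.56 with them removed. Mrpl23, by contrast, moved from -0.58 to -0.11 and -0.29, and Mrps24 from -0.46 to -0.10 and -0.24.

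**Figure D5:**
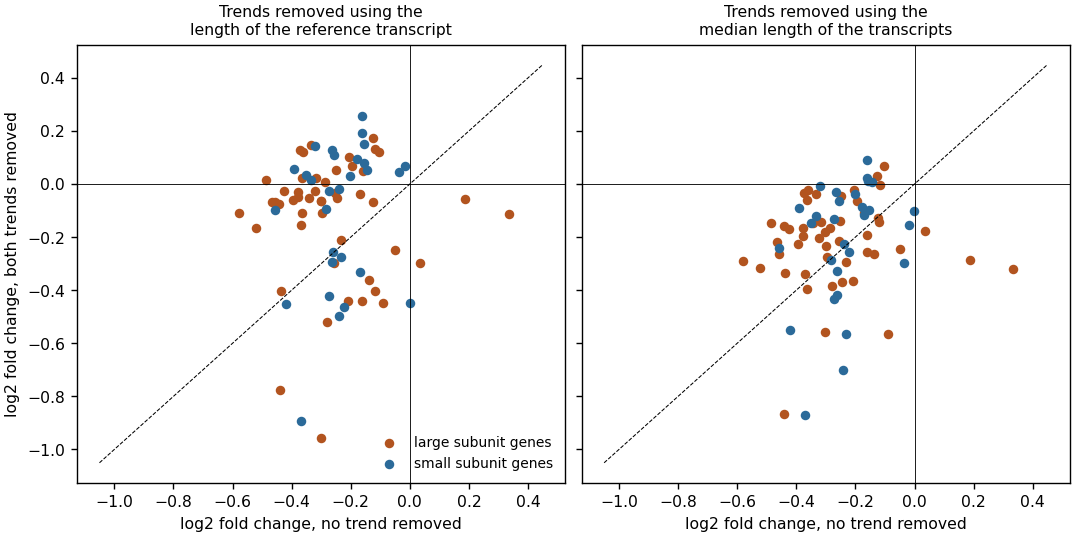
Log2 fold change with both trends removed against that with none removed, for large (orange) and small (blue) subunit genes, with the reference transcript (left) or the median transcript length (right), and the dashed line marking equal values. On the left the medians lie at -0.06 (large) and 0.02 (small), and on the right at -0.20 and -0.13.

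Overlapping genes limit single values, because the treatment of strand in the counting was not given in the sources used here. Exons of 23 members overlap exons of another protein-coding gene, of which 20 do so on the opposite strand and 4 on the same strand. Among these 23 genes 10 fell, with a median of -0.24, and among the 55 others 30 fell, with a median of -0.26. Mrps25 shares 4590 exonic bases with Nr2c2 on the opposite strand, a nuclear receptor gene that rose from 2.28 to 7.22 CPM (log2 fold change 1.67, SE 0.23, adjusted p = 0.00066). Mrpl46 and Mrps11 share 173 exonic bases on opposite strands. On the same strand, Mrpl53 shares 695 exonic bases with Gm42688, Mrps24 226 with Urgcp, Mrps34 763 with Nme3 and Mrps6 159 with Slc5a3. Of these partners, Nme3 (-0.63, adjusted p = 0.012) and Urgcp (-0.28, adjusted p = 0.032) fell. Slc5a3 rose (1.01, adjusted p = 0.019), and Gm42688 did not pass the test (-0.01, adjusted p = 0.98). The part of these overlaps in the values of the members was not tested.

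Subsequently, genes with other names that belong to the same machinery were examined. Of 5 ribosomal proteins named otherwise, Aurkaip1 fell from 267 and 268 CPM in control to 193 and 185 CPM in fructose, with a log2 fold change of -0.50 (SE 0.08, adjusted p = 0.0015). Gadd45gip1, a large subunit protein, fell as well (-0.43, SE 0.09, adjusted p = 0.0044). Dap3, a small subunit protein that binds GTP, and Chchd1 had log2 fold changes of -0.21 and -0.24, with adjusted p of 0.073 and 0.062. Ptcd3, a small subunit protein with RNA-binding repeats, rose from 44.7 and 41.3 CPM to 56.6 and 54.1 CPM (0.36, SE 0.09, adjusted p = 0.012). With both trends removed, these 3 calls were lost, at -0.15 for Aurkaip1, -0.28 for Gadd45gip1 and 0.11 for Ptcd3 (adjusted p of 0.28, 0.059 and 0.50), and Dap3 fell (-0.36, adjusted p = 0.018). With the median transcript length, Aurkaip1 (-0.26, adjusted p = 0.047) and Gadd45gip1 (-0.42, adjusted p = 0.010) fell and Dap3 did not pass the test.

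Among 27 genes for ribosome assembly and ribosomal RNA maturation, 9 fell (33.3%, against 10.7% of all tested genes) and 0 rose, with a median log2 fold change of -0.23. These were Gtpbp6 (-0.60), Mettl17 (-0.51), Mpv17l2 (-0.45), Trub2 (-0.40), Mtg1 (-0.39), Rbfa (-0.38), Noa1 (-0.37), Ngrn (-0.30) and Eral1 (-0.27), with adjusted p from 0.0035 to 0.048. Gtpbp6, a GTPase that acts on the large subunit, measured 24.3 and 25.8 CPM in control and 16.5 and 16.6 CPM in fructose. Once both trends were removed, 3 genes of the list fell (3.89% of all tested genes did), with a median of -0.08, and Trub2 (-0.39, adjusted p = 0.045) was the only one of the 9 among them. The others were Mettl15 (-0.48) and Malsu1 (-0.37).

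The 15 tested translation factors had a median of 0.01, and 1 fell (6.67%) and 2 rose, against 10.7% and 15.5% of all tested genes. Tufm, the elongation factor that delivers transfer RNA, measured 611 and 607 CPM in control and 520 and 467 CPM in fructose (log2 fold change -0.30, SE 0.09, adjusted p = 0.024). The initiation factor gene Mtif2 rose from 16.2 and 12.4 CPM to 25.2 and 26.0 CPM (0.84, SE 0.14, adjusted p = 0.0018), and Guf1, a back-translocating GTPase, rose as well (0.58, SE 0.13, adjusted p = 0.0075). With both trends removed, Mtif2 still rose (0.65, adjusted p = 0.010), whereas Tufm (-0.02, adjusted p = 0.91) and Guf1 (0.20, adjusted p = 0.36) did not pass the test, Gfm1 fell (-0.35) and Taco1 rose (0.36). Of 22 genes that charge mitochondrial transfer RNA, Sars2 (-0.37), Aars2 (-0.32) and Kars (-0.28), which also serves the cytosol, fell, with adjusted p of 0.017, 0.022 and 0.024, and none rose, with a median of -0.16. These 3 genes are 13.6% of the list, near the 10.7% of all tested genes that fell. None of the 3 passed the test with both trends removed (adjusted p of 0.75, 0.23 and 0.32), and Iars2 (-0.40) and Mars2 (-1.03) fell.

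The messenger RNAs that these ribosomes translate were higher in fructose with no trend removed, and more so with the length trend alone removed. They were less so or not at all in the fits that removed the GC content trend. Of the 13 messenger RNAs of the mitochondrial genome, 12 rose and 0 fell, where 15.5% and 10.7% of all tested genes did. Their median log2 fold change was 0.92. With both trends removed 7 rose and 0 fell, where 3.83% and 3.89% of all tested genes did, with a median of 0.46. With the median transcript length, 3 rose (mt-Nd4l, mt-Atp6 and mt-Atp8), 2 fell (mt-Nd2 and mt-Nd6) and the median was 0.16, where 6.7% of all tested genes rose and 5.72% fell. With the GC content trend alone removed, the median was 0.0959, whereas with the length trend alone removed it was 1.16. The mitochondrially encoded share of all counts was 5.89% and 6.49% in control and 10.8% and 11.2% in fructose. With library sizes computed without mitochondrially encoded and haemoglobin genes, 40 ribosomal protein genes fell, as many as with them, where 1373 of 12862 tested genes fell. Mitochondrial ribosomal RNAs were not analysed here.

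Markers of other tissues moved with the groups. Skeletal muscle markers summed to 266 and 362 CPM in control and 850 and 640 CPM in fructose, and 12 of 12 rose, with none at 0. Erythroid markers summed to 19204 and 15294 CPM in control and 11766 and 12141 CPM in fructose, and 5 of 7 fell, but 0 of 7 with both trends removed, with a median log2 fold change of -0.18 in place of -0.52. Of the 12 skeletal muscle markers, 11 rose with both trends removed. Of the 10 brown adipocyte markers, 2 fell and 2 rose, and with both trends removed 0 fell and 2 rose. Beside these marker counts, 10.7% of all tested genes fell and 15.5% rose with no trend removed. With both trends removed, 3.89% fell and 3.83% rose. Liver markers held from 1 to 3 counts per library. The part of these tissues, of sex and of RNA quality in the lower levels of the ribosomal protein genes was not tested.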

How the data were processed

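RNA-seq was performed on fetal BAT, with 2 control and 2 fructose libraries. Per the labels and the study's methods, reads were filtered with fastp, mapped to mm10 with Bowtie2 2.0.0.5 and TopHat2 2.0.0 and assembled with StringTie 2.2.0, and the assemblies were merged with Cuffmerge into the annotation from which gene counts were taken. The authors deposited raw counts per gene, without normalisation. The counting tool, the release of any annotation used in the assembly and the treatment of strand and of reads matching several genes are not given in the sources used here. A table of all libraries was used, and the 4 tables of single libraries were identical to it.

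Symbols, coordinates, transcript lengths and GC content came from the GENCODE annotation of GRCm38, and 43 listed genes had no match. The reference transcript of a gene was its principal protein-coding transcript. The quasi-likelihood test of edgeR 4.0.16 (with limma 3.58.1, R 4.3.3) was applied to the 12888 genes kept by filterByExpr, two-sided, with TMM normalisation, no covariate and Benjamini-Hochberg adjustment over all tested genes. Levels are CPM, and fold changes include edgeR's prior count. Total counts were 19224529, 18542897, 22461298 and 23645147. Over all genes with a count, chi-square values per degree of freedom were 11.4 between the controls and 7.47 between the fructose libraries. The spread over these genes together therefore exceeded counting error, and the values are not specific to the members. Trends were removed from each library by lowess (span 0.3) of log2 CPM on log length or GC content, as offsets. Alternatives were DESeq2 1.42.0, other normalisations and filters, the replicate number as a block, trend removal and each library left out. The scripts were tested on simulated counts.

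The members and gene lists were chosen with earlier results of these data known. Members named with values were those that fell among the 6 lowest log2 fold changes of each subunit, the 3 highest and 3 lowest per kilobase of each subunit, those at named sites of the ribosome, those above 0 at an unadjusted p under 0.05, and Mrps18a, Mrps18b, Mrps18c, Mrps30 and Mrps36. From other lists, those that passed the test and all 5 ribosomal proteins with other names were named. Mrpl9, Mrpl17, Mrpl35, Mrpl46, Mrpl50, Mrpl57, Mrps6 and Mrps17 were named after their values were seen.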

Additional observations from a re-analysis of the deposited data

How the results depend on the processing

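Of 78 members, 40 fell, and 36 to 45 fell under DESeq2, its size factors, the other filters, the replicate block and GC content trend removal, against 30 with scaling by library size only, which shifted the median of all genes to 0.06. Of all tested genes, 982 to 1518 fell under the first group of settings, where 12162 to 16360 were tested. With scaling by library size only, 859 of 12888 fell. No member rose except 1 with scaling by library size only, where 2242 of all tested genes rose. With the length trend removed 16 fell, with both trends 18, with both trends and the replicate block 17, and with both trends on median transcript length 22. Leaving out 1 library each gave 10 to 50, the lowest without fructose library 2. For the large subunit (30) these counts were 10, 10, 10 and 14, and 9 to 34 with 1 library left out, and for the small subunit (10) the length trend gave 6 and leaving out 1 library gave 1 to 16, the lowest again without fructose library 2 and the highest without control library 1. In the fits with 1 library left out, the lone library is assumed to vary like the others. The cause of these changes was not tested.

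The median of the large subunit (-0.30) was -0.24 with scaling by library size only, -0.11 with the length trend removed, -0.0631 with both, -0.0617 with both and the replicate block, -0.20 with the median transcript length, and -0.31 to -0.24 with 1 library left out. That of the small subunit (-0.24) was -0.0793 with the length trend removed, -0.13 with the median transcript length, 0.0161 with both trends and 0.0163 with the replicate block added, and -0.29 to -0.18 with 1 library left out.

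Of the 78 members, 75 were below 0 with no trend removed and 49 with both trends removed. The changes of sign listed next cover only members whose log2 fold change is given above, so other members turned as well. With both trends removed, and with the replicate block added in the second value of each pair, signs turned for Mrpl1 (-0.115 and -0.114), Mrpl4 (0.0226 and 0.0237), Mrpl22 (0.0055 and 0.0062), Mrpl27 (0.0209 and 0.0213), Mrpl34 (0.1448 and 0.1446), Mrpl35 (-0.297 and -0.296), Mrpl50 (-0.0585 and -0.059), Mrpl54 (0.016 and 0.0152), Mrps2 (0.0678 and 0.0666), Mrps7 (0.0281 and 0.0287), Mrps10 (0.0955 and 0.101), Mrps11 (0.0161 and 0.0163), Mrps12 (0.1441 and 0.1444), Mrps18a (0.1293 and 0.1289), Mrps18b (0.1515 and 0.1513), Mrps18c (0.0794 and 0.0799), Mrps28 (0.0318 and 0.0323) and Mrps34 (0.0569 and 0.0574). On median transcript length they turned for Mrpl1 (-0.32), Mrpl35 (-0.18), Mrpl50 (-0.29) and Mrps18b (0.0116). With the length trend removed they turned for Mrpl35 (-0.0526), Mrps2 (0.0691), Mrps10 (0.0539), Mrps18b (0.0661), Mrps18c (0.14) and Mrps36 (0.0461), and with the GC content trend removed for Mrpl1 (-0.18), Mrpl35 (-0.31) and Mrpl50 (-0.26). Near 0, Mrps2 was 0.042 with scaling by library size only and -0.0862 to 0.0527 with 1 library left out (0.008 without control library 2). Mrps25 was 0.0594 with scaling by library size only, -0.12 to 0.117 with 1 library left out (0.0363 without control library 2), 0.0046 with no filter and 0.0097 with at least 10 counts in every library, and Mrpl35 was -0.0147 to 0.0813 with 1 library left out. The replicate block alone turned no sign among these members.

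Libraries share only a replicate number. Deviations from the group means of same-numbered libraries had a correlation of -0.0519 over 12888 genes, and with the replicate block as a term 42 members fell, of which 39 were among the 40. No member had fewer than 250 counts in a library, and Mrpl1, with the fewest, had the largest SE of a log2 fold change (0.13).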
